A study of Mus musculus with 6 samples.

Results

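Chromatin at the T cell receptor beta and gamma loci was described in mature CD4+ and mature CD8+ T cells from the thymus of C57BL/6 mice. The members are all bins of 1 kb in 2 intervals of mouse build mm9, with the reads of 6 libraries counted at their midpoints. The beta interval, chr6:40800001-41530000, holds 730 bins, and the gamma interval, chr13:19200001-19460000, holds 260, together 990 of 2641885 bins of the genome. The beta interval is described as a variable part of 650 bins and, from chr6:41450001 on, a diversity, joining and constant part of 80 bins. The immunoglobulin heavy chain locus, chr12:114400001-117250000 with 2850 bins, is the comparison, a receptor locus of B cells. The intervals were set by position and not by a limit on any measured value, though earlier results of these data were known.

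Nuclei of each cell type were cut to mononucleosomes with micrococcal nuclease, and H3K4me3, a mark of active promoters, or H3K36me3, a mark laid down over transcribed gene bodies, was precipitated with rabbit polyclonal antibodies. Each cell type also had an input, chromatin that saw no antibody. The 6 groups (CD4 and CD8 input, H3K4me3 and H3K36me3) consist of a single library. No value is replicated, no p-value is given, and every difference compares 2 libraries. All printed intervals are 95% intervals that cover counting error only, and these reads, which carry no molecular identifiers, may repeat a molecule. The labels name the cells only as mature CD4+ or CD8+. They do not give the number or age of the mice, and gene positions in mm9, which the check of Cd4, Cd8a or pan-T markers needs, were not used here.

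The beta and gamma chains are antigen receptor chains of T cells, the beta chain pairing with alpha and the gamma chain with delta. Each gene is assembled in the thymus by V(D)J recombination, in which the RAG recombinase cuts beside variable, diversity and joining segments and the DNA between the joined segments is deleted or inverted. A cell that has completed beta rearrangement keeps 1 chosen variable segment beside the diversity, joining and constant segments on that allele, and the lymphocytes of a population differ in which segment was joined. CD4+ and CD8+ thymocytes carry the alpha and beta chains, and many of their gamma alleles are also rearranged.

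The RefSeq gene table of GRCm38.p6 gives the order of the parts, though not their mm9 positions. It lists 35 Trbv segments, 13 of them pseudogenes. Trbv1 comes first and is followed by protein genes that include Prss58, a serine protease gene. The 33 segments from Trbv2 to Trbv30 come next, then a group of trypsinogen genes such as Try4, Prss1 and Prss2, which code for digestive enzyme precursors. The diversity, joining and constant segments follow in 2 sets, Trbd1 to Trbc1 and Trbd2 to Trbc2, and then Trbv31, which is read in the opposite direction, and the neighbouring gene Ephb6. The gamma locus has 7 variable, 4 joining and 4 constant segments between Amph and Stard3nl. The builds differ, so no bin below is assigned to a segment.

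The libraries held 6730337 to 12114294 reads on chromosomes 1 to 19, X and Y. Distinct positions made up 54.4% of CD4 and 31.4% of CD8 H3K4me3 reads, against 91.2% to 97.6% in the other 4 libraries. Away from marked regions the CD4 H3K4me3 library held 19.7% of the level of its input and the CD8 H3K4me3 library 1.34%, on the scale of RPM, the number of reads scaled to library size. A low level of H3K4me3 reads is therefore not comparable between the cell types, and H3K4me3 ratios are also given below with this background subtracted. In the same regions the H3K36me3 libraries held 34.6% (CD4) and 35.0% (CD8) of the level of their inputs.

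The number of input reads per kb changed along the beta locus. The 2 inputs fell in steps through the variable part and returned at the end of the diversity, joining and constant part, in both cell types. From chr6:40800001-41050000 the inputs held 3.31 reads per kb in CD4 and 3.69 in CD8. That was 0.849 (0.787 to 0.916) and 0.906 (0.842 to 0.973) times the level of the 500 kb on both sides of the locus. Over chr6:41050001-41200000 the level was 0.479 (0.423 to 0.541) of the flanks in CD4 and 0.491 (0.435 to 0.552) in CD8. Over chr6:41200001-41300000 it was 0.308 (0.254 to 0.369) and 0.302 (0.250 to 0.361). The stretches were drawn after the values were seen.

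The lowest level came just ahead of the diversity segments' part. Over the 150 kb that start at chr6:41300001 the input level was 0.197 (0.162 to 0.237) of the flanks in CD4 and 0.154 (0.124 to 0.189) in CD8, from 115 and 94 reads in 150 kb. It stayed low over chr6:41450001-41480000, at 0.325 (0.230 to 0.447) and 0.319 (0.226 to 0.437). In the next 20 kb, chr6:41480001-41500000, it was 0.423 (0.291 to 0.595) and 0.527 (0.381 to 0.712). Over the last 30 kb, chr6:41500001-41530000, it was back at 1.33 (1.12 to 1.56) in CD4 and 0.924 (0.759 to 1.11) in CD8. Across 30 kb, from the window at chr6:41480001-41490000 to that at chr6:41500001-41510000, the reads per 10 kb went from 9 to 54 in CD4 and from 10 to 35 in CD8.

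**Figure D1:**
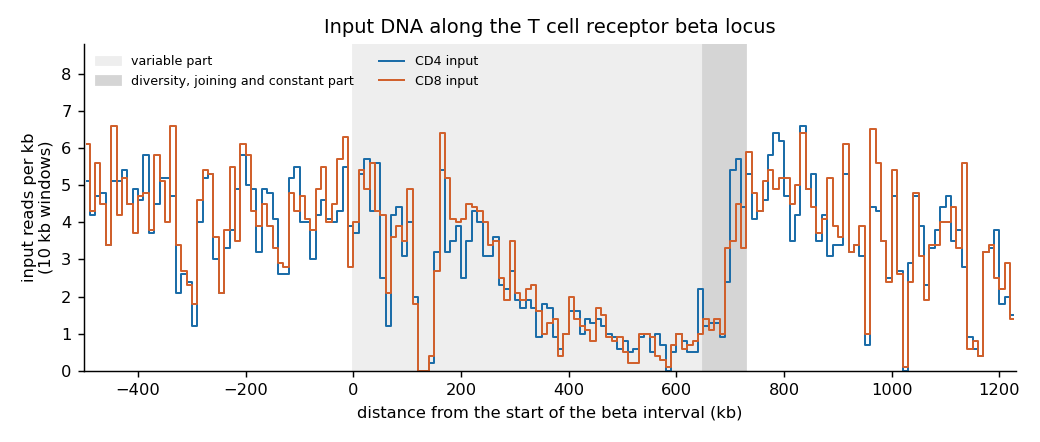
Input reads per kb in windows of 10 kb (y axis) against distance in kb from the start of the beta interval (x axis), with 500 kb on each side; lines are the CD4 and CD8 inputs and shading marks both parts of the locus. Both lines fell together through the variable part to 0.197 (CD4) and 0.154 (CD8) times the flanking level over the last 150 kb of the variable part, and rose at the end of the shaded interval.

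Among 50 kb windows of the beta interval the lowest was chr6:41350001-41400000, with 27 CD4 and 24 CD8 input reads, 0.138 and 0.118 of the flanks. Next was chr6:41300001-41350000, with 38 and 29 reads. The highest were chr6:40800001-40850000, with 246 and 242 reads, and the 30 kb at the end, with 155 and 113 reads. Both inputs lay under 50% of their mean in 8 of the 14 whole 50 kb windows of the beta locus, against 6.55% of such windows over the genome and 3 of 57 at the heavy chain locus. Another of the low windows, chr6:40900001-40950000, stands apart from the descent, with 62 and 71 reads. It contains 20 kb without an input read in either cell type.

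A read of 33 bp that matches several copies of a sequence cannot be assigned to a single copy. The trypsinogen genes and variable segments are families of related copies. How reads with several matches were handled was not given. The part of the low input that such reads or deleted DNA make up was not tested. In the beta interval 17.4% of bins had no input read in either cell type, against 6.90% in its flanks, and at the heavy chain locus 7.33% against 2.50%. The CD4 over CD8 input ratio was 1.35 (1.05 to 1.73) over the last 30 kb, 0.915 (0.849 to 0.986) over the whole variable part and 1.14 (0.934 to 1.38) over the diversity, joining and constant part.

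H3K4me3 was concentrated in the diversity, joining and constant part. A bin was called enriched with at least 10 reads and at least 4 times the RPM of the same cell type's input, with input set to at least 3 reads. There 21 of 80 bins were enriched in CD4 and 14 of 80 in CD8, against 1.33% (CD4) and 1.16% (CD8) of all bins of the genome. All 14 CD8 bins were among the 21 CD4 bins. The part held 7076 CD4 and 2581 CD8 H3K4me3 reads, which was 29.7 times the input in CD4 (26.0 to 34.0) and 10.9 times in CD8 (9.42 to 12.7).

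Most of these reads lay in 1 unbroken run of 16 kb, chr6:41482001-41498000, with 6648 CD4 and 2509 CD8 reads over 25 and 33 input reads. In CD4 all 16 bins were enriched and in CD8 13. The run was at 620 RPM in CD4 and 207 RPM in CD8. It consisted of a first and a second stretch, separated by a low bin at chr6:41490001-41491000 with 31 CD4 reads and 0 CD8 reads.

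The first stretch, chr6:41482001-41490000, held 3055 CD4 and 799 CD8 reads. Its highest bin in both cell types was chr6:41485001-41486000, with 1145 CD4 and 401 CD8 reads. At 200 bp the CD4 maximum was chr6:41485801-41486000 with 355 reads, and the CD8 maximum chr6:41485001-41485200 with 136. The second stretch, chr6:41491001-41498000, held 3562 CD4 and 1710 CD8 reads. Its highest bin in both was chr6:41493001-41494000, with 924 CD4 and 1150 CD8 reads. The CD8 reads were bunched there, 1150 of 1710, while the CD4 reads went on at 844, 794, 330 and 238 per kb over the next 4 bins, where CD8 had 183, 122, 12 and 73. The limits of both stretches were set after the values were seen.

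A weaker group lay further on. The run at chr6:41503001-41505000 held 99 CD4 and 12 CD8 reads, and the run at chr6:41507001-41510000 held 214 and 49. Between and after them the bins were not enriched in either cell type. This group lies where the input had returned to the level of the flanks.

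H3K36me3 was also found there, in the same 20 kb. Windows of 10 kb were called enriched for H3K36me3 with at least 20 reads and at least 2 times the input. Of the 8 windows of this part, the same 2 were enriched in both cell types, against 10.3% (CD4) and 10.2% (CD8) of windows of the genome. The window at chr6:41480001-41490000 held 125 CD4 reads over 9 input reads, 20.99 times the input, and 149 CD8 reads over 10, 22.0 times. The window at chr6:41490001-41500000 held 230 over 24 in CD4 and 324 over 33 in CD8, 14.5 times the input in both. The highest bin was chr6:41497001-41498000, with 67 CD4 and 75 CD8 reads. It is the last bin of the H3K4me3 run, and the next bin, chr6:41498001-41499000, still held 34 and 46 H3K36me3 reads with 12 and 0 H3K4me3 reads.

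In the first stretch H3K36me3 was highest at chr6:41485001-41486000 in CD4, with 42 CD4 and 32 CD8 reads, and at chr6:41486001-41487000 in CD8, with 14 and 33. In the second stretch it was low at the start and highest at the end. In its first bins, chr6:41491001-41492000 and chr6:41492001-41493000, CD4 had 0 H3K36me3 reads and CD8 had 3 and 7. In the bin of the CD8 H3K4me3 maximum, chr6:41493001-41494000, there were 19 CD4 and 14 CD8 H3K36me3 reads. From chr6:41500001 on each bin to chr6:41511000 held at most 6 reads of H3K36me3 in either cell type, also under the weaker H3K4me3 runs. The third named window of the part, chr6:41520001-41530000, held 33 and 34 reads, 1.13 and 1.52 times the input, and was not called.

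**Figure D2:**
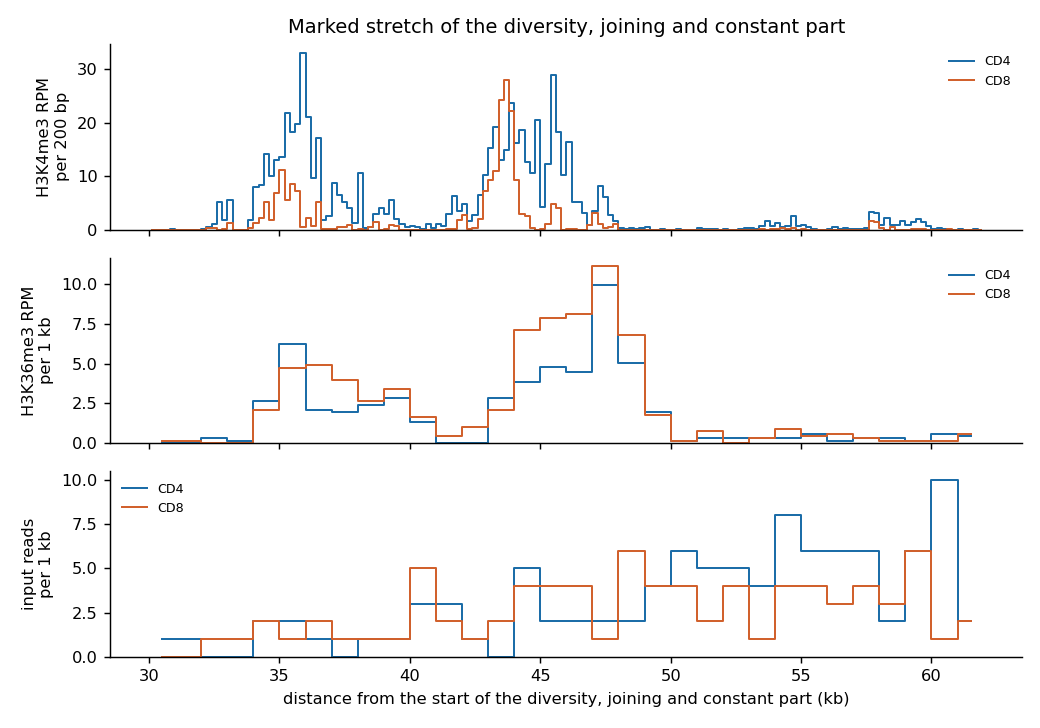
H3K4me3 RPM per 200 bp (top), H3K36me3 RPM per 1 kb (middle) and input reads per 1 kb (bottom) against distance in kb from the start of the diversity, joining and constant part, for CD4 and CD8. H3K4me3 formed one stretch from 32 kb to 40 kb and another from 41 kb to 48 kb, H3K36me3 was highest at 47 kb to 48 kb, and input reads were fewest under the first stretch.

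The variable part carried H3K4me3 at scattered sites. In CD4 32 of 650 bins were enriched, 4.92% against 1.33% of all bins of the genome. In CD8 12 of 650 were, 1.85% against 1.16%, a share near that of the genome. All 12 were among the 32. They formed 19 runs in all. The part as a whole held 2611 CD4 reads, 1.84 times the input (1.73 to 1.97), and 613 CD8 reads, 0.351 times (0.318 to 0.386). With 1 read per position these values were 2.61 and 0.839. The CD8 value lies under 1 but above the background of that library, 1.34% of the input. Outside enriched bins the part held 447 CD4 and 79 CD8 reads, 1.72 and 3.58 times the number that the background level gives. That level was taken far from bins with many reads, so values above 1 were partly set by this choice.

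The strongest site of the variable part was chr6:41068001-41072000, with 1111 CD4 and 225 CD8 H3K4me3 reads over 19 and 15 input reads. The 4 bins held 336, 337, 278 and 160 CD4 reads and 116, 40, 30 and 39 CD8 reads. They were all enriched in both cell types. The 10 kb window at chr6:41070001-41080000, which holds 2 of these bins, was the single window of the variable part called for H3K36me3. In CD8 it was 1 of 65 windows, 1.54% against 10.2% of windows of the genome. In CD4 the count was 0 of 65, against 10.3%. CD8 passed the rule, with 40 reads over 25, 2.36 times the input. CD4 did not, with 29 reads over 23, 1.91 times.

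Nearby sites were weaker. The bins chr6:41063001-41064000 and chr6:41066001-41067000 held 63 and 45 CD4 reads and 32 and 18 CD8 reads. The run at chr6:41100001-41103000 held 125 and 93 reads and chr6:41128001-41129000 held 58 and 28. The bins chr6:41080001-41081000 and chr6:41091001-41092000 held 26 and 25 CD4 and 8 and 4 CD8 reads. From chr6:41138001 to chr6:41178000 there were 7 further runs, of 17 to 34 CD4 reads and at most 6 CD8 reads, which passed the rule in CD4 and not in CD8. Among them chr6:41148001-41150000 held 34 and 2 reads and chr6:41146001-41147000 held 30 and 0.

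Sites ahead of this cluster were marked too. The bin chr6:40841001-40842000 stood alone, more than 150 kb from the next run, with 102 CD4 and 44 CD8 reads. The run at chr6:41005001-41010000 held 212 and 25 reads, chr6:40996001-40999000 held 151 and 23, and chr6:41011001-41013000 held 60 and 10. Beyond chr6:41178000 a single bin of the variable part was enriched, chr6:41221001-41222000, with 24 and 6 reads. No bin was enriched from chr6:41222001 to chr6:41482000. The last 150 kb of the variable part held 29 CD4 and 2 CD8 H3K4me3 reads in all, over 115 and 94 input reads.

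**Figure D3:**
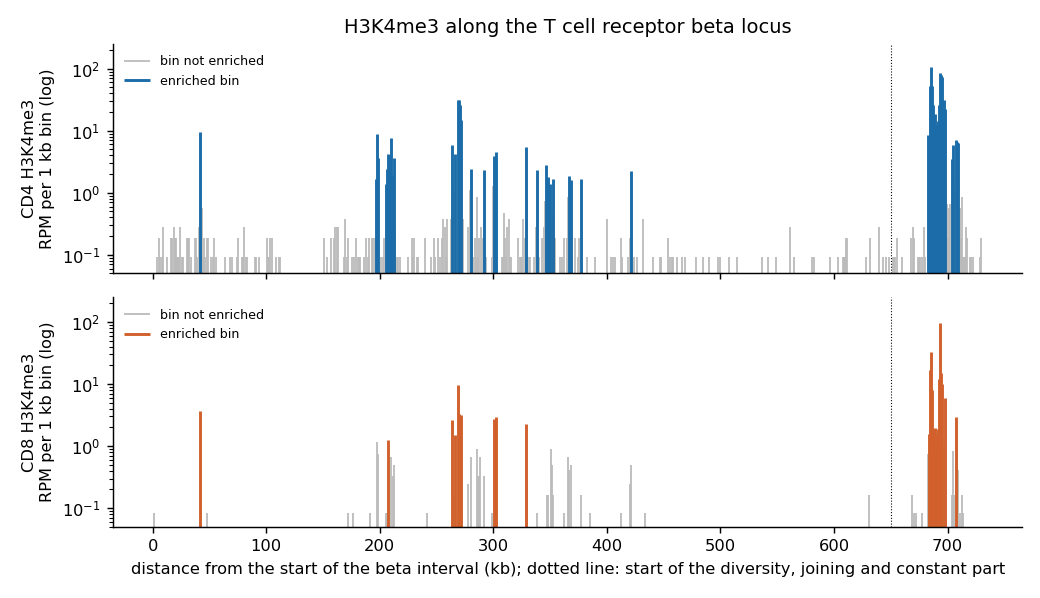
H3K4me3 RPM per 1 kb bin on a log axis against distance in kb from the start of the beta interval, CD4 above and CD8 below; coloured lines are enriched bins, grey lines other bins with reads. Enriched bins numbered 32 (CD4) and 12 (CD8) in the variable part and 21 and 14 in the diversity, joining and constant part, right of the dotted line, with an empty stretch between them.

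H3K36me3 over the variable part lay below the input, at 0.595 times in CD4 (0.537 to 0.659) and 0.723 times in CD8 (0.660 to 0.791). Both values were above the H3K36me3 background away from marked regions, 34.6% (CD4) and 35.0% (CD8) of the input. That level was taken far from bins with many reads of either mark, so values above it were partly set by this choice. The heavy chain locus also lay above it, at 0.587 (CD4) and 0.639 (CD8) times the input. The 2 other windows that the naming rule gave held few reads. The window chr6:41280001-41290000 had 12 CD4 and 16 CD8 reads, and chr6:41180001-41190000 had 12 and 2. Both had under 10 input reads in each cell type.

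CD4 and CD8 were compared after centring on the median log2 ratio of bins or windows enriched in both. An enriched bin was called different at a fold of at least 2 with an exact conditional interval, at an error rate of 0.001, that excluded 1. H3K4me3 was called higher in CD4 in 28 of 32 enriched bins of the variable part and in 20 of 21 of the diversity, joining and constant part, against 26.6% of enriched bins of the genome. It was called higher in CD8 in 0 of these 53 bins, against 6.79% of the genome's. All 53 had passed the enrichment rule in CD4, and 20 of the 32 and 7 of the 21 had passed it in CD4 alone, so the rule itself largely set the direction of those calls. Of the bins enriched in both cell types, 9 of 12 and 13 of 14 were called higher in CD4, against 17.7% of such bins of the genome. Neighbouring bins of a run were counted singly here. Of the 14, 13 lie in the run at chr6:41482001-41498000. Of the 12, 4 lie in the run at chr6:41068001-41072000 and 3 in that at chr6:41100001-41103000. Over the whole parts, CD4 was 6.12-fold higher in the variable part (5.61 to 6.70) and 3.94-fold in the diversity, joining and constant part (3.77 to 4.13). With total reads as the scale every H3K4me3 log2 ratio is lower by 0.35, and the 2 parts stayed CD4-higher, at 2.27 and 1.63 on the log2 scale. With the background of each library subtracted these log2 ratios were 2.51 and 1.97, against 2.61 and 1.98 without subtraction.

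Of the 22 beta runs, 13 had no bin enriched in CD8, so their direction followed from the rule that chose them, and their ratios are given as a description. The 16 kb run, enriched in both cell types, was 3.81-fold higher in CD4 (3.64 to 3.99). Within it the first stretch was 5.50-fold higher (5.08 to 5.95) and the second 2.995-fold (2.83 to 3.17), and these intervals do not overlap. With 1 read per position the stretches' log2 ratios were 1.71 and 1.38. The single bin not called among the 21 of this part was the CD8 maximum, chr6:41493001-41494000, where CD4 was 1.16-fold higher (1.06 to 1.26), and with total-read scaling CD8 was the higher there. In the variable part the 4 bins not called were the 3 of the run at chr6:41100001-41103000 and chr6:41168001-41169000.

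The bin with the largest lower bound was chr6:41496001-41497000, with 330 CD4 and 12 CD8 reads, 39.5-fold higher in CD4 (22.3 to 77.3). In chr6:41487001-41488000 there were 274 and 22 reads, 17.9-fold (11.6 to 29.0). In 3 other named bins CD8 had 0 reads, so that the fold was set against 3 CD8 reads. They were chr6:41008001-41009000 with 44 CD4 reads, at least 21.1-fold higher in CD4, chr6:41490001-41491000 with 31, at least 14.9-fold, and chr6:41146001-41147000 with 30, at least 14.4-fold. These values hold for the floor of 3 reads, and the lower 95% limits of the ratios themselves were 16.4, 11.4 and 10.99. Of the bins in this paragraph, only chr6:41487001-41488000 passed the enrichment rule in both cell types. The others passed it in CD4 alone, so the rule largely set their direction, and their folds are given as a description.

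In the variable part the site at chr6:41068001-41072000 was 7.10-fold higher in CD4 (6.15 to 8.23). The ratio varied between sites. It was 12.2-fold (8.04 to 19.3) at chr6:41005001-41010000 and 9.44-fold (6.06 to 15.3) at chr6:40996001-40999000. In CD8, 1 of 5 bins of the former run and 0 of 3 of the latter were enriched. The ratio was 3.33-fold (2.32 to 4.86) at chr6:40841001-40842000 and 1.93-fold (1.47 to 2.56) at chr6:41100001-41103000, where every bin was enriched in both cell types. The weaker runs after the 16 kb run were 11.9-fold (6.50 to 23.7) and 6.28-fold (4.59 to 8.75) higher in CD4. In CD8, 0 of 2 and 1 of 3 of their bins were enriched. The spread of ratios between sites was thus partly set by the rule that chose the runs.

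H3K36me3 went the other way by a small amount. Over the diversity, joining and constant part CD8 was 1.19-fold higher (1.06 to 1.35), with 488 CD4 and 600 CD8 reads. Over the variable part CD8 was 1.29-fold higher (1.15 to 1.45), with 529 and 705 reads. In the second stretch of the marked run there were 174 CD4 and 255 CD8 reads, with a CD4 over CD8 ratio of 0.703 (0.577 to 0.856). In the first, with 125 and 147 reads, the ratio was 0.877 (0.685 to 1.12), an interval that includes 1. Of the 3 enriched H3K36me3 windows in the beta locus none was called higher in either cell type, against 2.08% higher in CD4 and 0.84% higher in CD8 over the genome. Over the same part, H3K4me3 was higher in CD4 and H3K36me3 slightly higher in CD8.

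**Figure D4:**
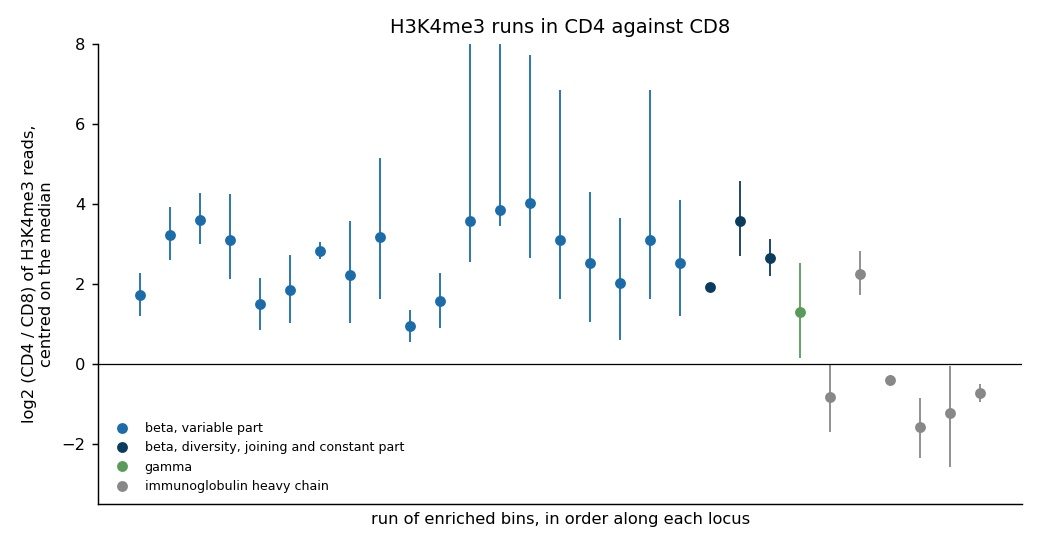
Log2 of CD4 over CD8 H3K4me3 reads, centred on the median (y axis), for each run of enriched bins in order along each locus (x axis); bars are 95% counting intervals, fewer than 3 CD8 reads are set to 3 for the point, and 2 bars run beyond the top. The 22 beta runs and the gamma run lie above 0, of which 13 beta runs and the gamma run were enriched in CD4 alone, and 5 of the 6 heavy chain runs lie below 0, of which 2 were enriched in CD8 alone.

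The gamma locus had few H3K4me3 reads, and its H3K36me3 lay near the level of the input. A single bin of 260 was enriched for H3K4me3, chr13:19282001-19283000, with 19 CD4 reads and 11 CD8 reads, in CD4 by the rule and not in CD8. In CD4 that was 0.385% of the bins, against 1.33% of all bins of the genome. In CD8 it was 0 of 260, against 1.16%. The whole interval held 326 CD4 and 73 CD8 reads, 0.370 (0.325 to 0.421) and 0.0758 (0.0588 to 0.0964) times the input. Reads above their surroundings lay in 2 places. The windows chr13:19270001-19280000 and chr13:19280001-19290000 held 40 and 25 CD4 and 17 and 11 CD8 reads, and chr13:19430001-19440000 held 47 and 14. In the other 23 windows CD4 had 0 to 21 reads and CD8 0 to 7.

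The ratio of CD4 to CD8 H3K4me3 over the gamma interval was 6.42 (4.97 to 8.39), with no bin called different. With 1 read per position, or with bins shifted by 500 bp, 4 gamma bins were enriched in CD4 and 1 was called higher in CD4. Subtracting the background of each library lowered its log2 ratio from 2.68 to 1.87. The enriched bin itself was 2.48-fold higher in CD4 (1.12 to 5.78).

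H3K36me3 in the gamma interval was 0.885 (0.790 to 0.991) times the input in CD4 and 0.936 (0.836 to 1.05) in CD8. Both values lay above the H3K36me3 background away from marked regions, 34.6% (CD4) and 35.0% (CD8) of the input, which the choice of background bins partly set. Of 26 windows 1 was enriched in CD4 and 2 in CD8. These shares were 3.85% and 7.69%, against 10.3% and 10.2% of windows of the genome. The highest window was the last, chr13:19450001-19460000, with 88 CD4 and 84 CD8 reads, 2.66 and 2.64 times the input. The level went on rising past the end of the interval, where the next 10 kb held 162 and 131 reads. In the RefSeq order Stard3nl, a gene for a membrane protein of late endosomes, follows the last constant segment on this side, and the window was not assigned to it. At the other end chr13:19250001-19260000 held 57 and 47 reads, 1.91 and 2.04 times the input, and was called in CD8. The third named window, chr13:19290001-19300000, had 5 reads of H3K36me3 in each cell type over 3 and 6 input reads.

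Between the cell types H3K36me3 in the gamma interval had a CD4 over CD8 ratio of 1.002 (0.883 to 1.14) from 489 and 503 reads. Of 2 enriched windows none was called different, against 2.08% higher in CD4 and 0.84% higher in CD8 over the genome. The window chr13:19430001-19440000 held 15 CD4 and 40 CD8 reads over 34 and 32 input reads, and did not pass the rule in either.

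The gamma inputs were low in the middle of the interval. Over the whole interval they were at 0.770 (0.714 to 0.830) of the flanks in CD4 and 0.699 (0.647 to 0.754) in CD8. The 7 windows of 10 kb from chr13:19200001 to chr13:19270000 held 42 to 68 CD4 reads, and the 16 from there to chr13:19430000 held 3 to 38. The lowest were chr13:19410001-19420000, with 3 CD4 and 2 CD8 reads, and chr13:19290001-19300000, with 3 and 6. The highest were chr13:19240001-19250000, with 68 and 63, and chr13:19440001-19450000, with 67 and 49. The inputs did not differ between the cell types beyond counting error, with a CD4 over CD8 ratio of 1.03 (0.936 to 1.14).

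**Figure D5:**
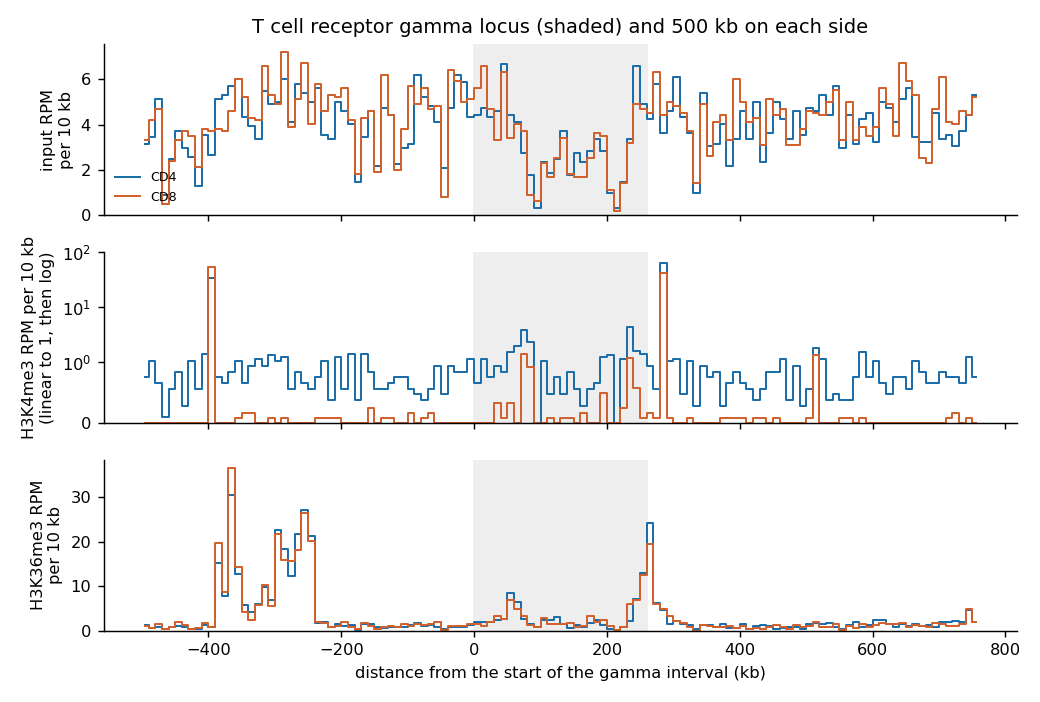
Input (top), H3K4me3 (middle, linear up to 1 and logarithmic above) and H3K36me3 (bottom) in RPM per 10 kb against distance in kb from the start of the gamma interval, shaded, with 500 kb on each side, for CD4 and CD8. Input was low inside the shaded interval, with 3 CD4 and 2 CD8 reads in its lowest window, and both marks were higher in places outside it than anywhere within.

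The heavy chain locus was marked at few sites, and at most of them the CD8 level was the higher. H3K4me3 was enriched in 8 of 2850 bins in CD4 and 12 in CD8, in 6 runs. That was 0.281% and 0.421%, against 1.33% (CD4) and 1.16% (CD8) of all bins of the genome. Of the 6 runs, 2 had no bin enriched in CD4, so their direction followed from the rule that chose them. One of these 2 was chr12:114424001-114425000. The largest run, chr12:114661001-114666000, held 764 CD4 and 1455 CD8 reads, a CD4 over CD8 ratio of 0.755 (0.691 to 0.825). The run at chr12:115616001-115618000 held 252 and 595 reads, a ratio of 0.609 (0.523 to 0.707). At chr12:114667001-114669000 there were 20 and 85, and at chr12:114424001-114425000 18 and 46. One of the 5 named runs, chr12:114460001-114461000, was higher in CD4, with 127 and 38 reads, a ratio of 4.81 (3.32 to 7.10).

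Called bins at the heavy chain locus were 1 higher in CD4, the bin just named, and 3 higher in CD8, of 12 enriched, against 26.6% and 6.79% of enriched bins of the genome. All 4 were among the 8 bins enriched in both cell types, where the shares of the genome were 17.7% and 7.49%. The clearest was chr12:114665001-114666000, with 43 CD4 and 248 CD8 reads, 4.01-fold higher in CD8 (2.89 to 5.68). The bin chr12:114667001-114668000 was 3.16-fold higher in CD8 (1.71 to 6.27) and chr12:115616001-115617000 2.83-fold (1.62 to 5.23). Over the whole heavy chain interval the sum of reads was CD4-higher, with a log2 ratio of 0.95, which turned to -0.14 with the background subtracted.

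H3K36me3 at the heavy chain locus was highest beside the largest H3K4me3 run. The window chr12:114650001-114660000 held 144 CD4 and 294 CD8 reads over 59 input reads each, 3.69 and 7.36 times the input and 1.98-fold higher in CD8 (1.62 to 2.43). Next to it chr12:114640001-114650000 held 41 and 135 reads, 3.19-fold higher in CD8 (2.24 to 4.65), and was the single window of 10 enriched that was called. Over the genome 0.84% of enriched windows were called higher in CD8 and 2.08% higher in CD4. Windows at the far end went the other way without a call, such as chr12:117180001-117190000 with 55 and 34 reads. The third named window, chr12:115830001-115840000, held 31 and 37.

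Per input read, the diversity, joining and constant part of the beta locus held far more of both marks than the other intervals taken whole. The intervals differ in length, and a marked site weighs less in a longer one. In CD8 the heavy chain run chr12:114661001-114666000 held 1455 H3K4me3 reads over 11 input reads in 5 bins. The 16 kb beta run held 2509 over 33. In CD4 they held 764 over 17 and 6648 over 25. H3K4me3 was at 29.7 and 10.9 times the input there, against 0.370 and 0.0758 in the gamma interval and 0.353 and 0.232 at the heavy chain locus, CD4 first. H3K36me3 was at 3.26 (2.78 to 3.84) and 4.54 (3.86 to 5.37) times the input. In the gamma interval H3K36me3 was at 0.885 and 0.936 times, and at the heavy chain locus at 0.587 and 0.639. The input under the 16 kb run was itself low, 25 CD4 and 33 CD8 reads, while the last 30 kb of the part held 155 and 113. The ratios of the whole part thus set marks that lay mostly in the run against input that lay mostly outside it. Single bins are set against the minimum of 3 input reads. Without the input, the beta part held 660 CD4 and 213 CD8 H3K4me3 RPM in 80 kb, against 30.4 and 6.03 in 260 kb of the gamma interval and 309 and 204 in 2850 kb of the heavy chain locus. For H3K36me3, whose sums grow with the length of the interval, they were 72.5 and 88.8 RPM in the beta part, 72.7 and 74.4 in the gamma interval and 514 and 561 at the heavy chain locus.

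Input at the heavy chain locus was at 0.689 (0.664 to 0.714) of its flanks in CD4 and 0.739 (0.712 to 0.767) in CD8. Its lowest 50 kb windows, chr12:116950001-117000000 and chr12:116650001-116700000, held 42 and 56 CD4 reads and 50 and 49 CD8 reads. Its highest, chr12:114550001-114600000 and chr12:116200001-116250000, held 264 and 258 CD4 reads. Of the 3 low windows there, 2 were adjacent, against 7 of the 8 at the beta locus.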

How the data were processed

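Per the labels' protocols, nuclei were treated with micrococcal nuclease, precipitated and sequenced. The deposited files list the position of each mapped read (33 bp), another kind of value than a count table, with no score used here. Per the submitters' processing notes the build is mm9. The aligner, the handling of repeated reads and of reads with several matches were not given in the sources used here.

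Reads were counted at their midpoints in bins of 1 kb and windows of 10 kb on chromosomes 1 to 19, X and Y, which held 98.3% to 99.8% of the reads of a library. Enrichment was set against each cell type's own input, with the limits given in the report. CD4 and CD8 were compared with exact conditional (Clopper-Pearson) intervals, centred on the median log2 ratio of bins or windows enriched in both (-0.52 for H3K4me3 and -0.04 for H3K36me3). Input levels have exact Poisson-based intervals. With 1 library per group no test was made, and the depth limits single bins most. The calls were tested on simulated data. The simulated counts held counting error alone, so repeated reads, unlike backgrounds and variation between libraries were not covered.

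Named regions were, for H3K4me3, the 15 runs with most reads in the beta and gamma loci and the 5 in the heavy chain locus, 3 windows per part for H3K36me3, up to 5 called bins per direction and locus, and the 2 lowest and 2 highest input windows per locus. Any other region in the text was picked with its values in view. The intervals, lists and limits were chosen with earlier results of these data known. Alternatives were 1 read per position, pooled inputs, other limits, shifted bins, total-read scaling, background subtraction and another input reference. RefSeq names and order come from GRCm38.p6, with no coordinates taken from it and no sequence printed. The work was done in Python 3.11.15 with SciPy 1.17.1, NumPy 2.4.6, matplotlib 3.10.9 and pandas 2.3.3.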

Additional observations from a re-analysis of the deposited data

Results flagged for a closer look

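The H3K4me3 level over the input in the variable part of the beta locus was 1.84 in CD4 and 0.351 in CD8, above the input in one cell type and below it in the other. The difference was not tested, with 1 library per group. The background away from marked regions, 19.7% of the input in the CD4 and 1.34% in the CD8 H3K4me3 library, moved with it, and its part in the result was not tested. With that background subtracted, the log2 CD4 over CD8 ratio of H3K4me3 reads in the variable part was 2.51, against 2.61 without subtraction. With 1 read per position the values were 2.61 and 0.839, where 54.4% of CD4 and 31.4% of CD8 H3K4me3 reads had a distinct position.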

How the results depend on the processing

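No paired analysis was possible because each group has 1 library, and leaving out a library leaves no group to compare. Of 224 recomputed values that answer a comparison, 179 stayed within the limits set for them, 44 moved and 1 reversed. Of 156 for named runs, stretches, H3K36me3 windows and input windows, 17 moved and none reversed. Bins inside longer runs were not in this count. Among them, the bin of the CD8 H3K4me3 maximum in the diversity, joining and constant part was CD8-higher with total-read scaling. The limits of the stretches, the share of low input windows and the alternative of an input of at least 1 read were chosen after the data were seen.

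With 1 read per position, enriched H3K4me3 bins in the gamma locus numbered 4 in CD4 and 1 in CD8, with 1 higher in CD4, and enriched H3K36me3 windows in CD4 1 in the variable beta part and 2 in the gamma locus. H3K4me3 over input was then 2.61 (CD4) and 0.839 (CD8) in the variable part, 16.4 (CD8) in the diversity, joining and constant part, 0.662 and 0.218 in the gamma locus and 0.533 and 0.321 at the heavy chain locus, and H3K36me3 there 0.623 and 0.670. The log2 CD4 over CD8 H3K4me3 ratios became 2.19 (variable), 1.62 (diversity, joining and constant) and 1.41 (heavy chain).

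With total reads as the scale they were 2.27, 1.63 and 0.60, and 2 heavy chain H3K36me3 windows were higher in CD8. With background subtracted the log2 ratios were -0.67 for H3K36me3 in the variable part, 1.87 for H3K4me3 in the gamma locus and -0.23 for H3K36me3 at the heavy chain locus, and the H3K4me3 ratio at the heavy chain locus reversed to -0.14; the cause was not tested. With pooled inputs, H3K36me3 windows numbered 2 (CD4) and 1 (CD8) in the gamma locus and 4 (CD8) at the heavy chain locus.

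With 8-fold (H3K4me3) or 3-fold (H3K36me3) limits, H3K4me3 bins numbered 18 and 6 in the variable part, 8 (CD8) in the diversity, joining and constant part and 0 (CD4) in the gamma locus, and H3K36me3 windows 0 (CD8) in the variable part, 0 and 0 in the gamma locus and 2 and 2 at the heavy chain locus. With at least 20 or 40 reads there were 0 gamma H3K4me3 bins (CD4) and 4 heavy chain H3K36me3 windows (CD8). Bins shifted by 500 bp gave 4 gamma bins in CD4, 1 of them higher in CD4, and an input of at least 1 read gave 1 gamma bin in CD8. Relative to the whole chromosome the input was at 0.772 in the gamma locus (CD8) and at 0.822 and 0.819 at the heavy chain locus. Few input reads in the low stretches of the beta locus limit single bins there.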

Other observations

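Outside enriched bins, the gamma interval held 307 CD4 and 62 CD8 H3K4me3 reads, 1.77 and 4.80 times the number given by the input and the background level of each library. In the variable part of the beta locus these ratios were 1.72 and 3.58, from 447 and 79 reads, and in its diversity, joining and constant part 3.17 and 4.69, from 115 and 11. At the heavy chain locus they were 1.16 and 1.55, from 2126 and 220 reads. All 8 ratios were above 1. The background level came from bins at least 10 kb from any bin with more than 9 reads of either mark. The bins counted here include neighbours of enriched bins, so ratios above 1 were partly set by that choice. The CD8 ratio in the diversity, joining and constant part rests on 2.34 expected reads.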
